A study of Mus musculus with 24 samples.

Results

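The genes described here are 10 receptors, adhesion molecules and regulators of endothelial cells, the cells that line blood vessels: Kdr, Flt1, Nrp1, Nrp2, Tek, Tie1, Cdh5, Pecam1, Emcn and Etv2. They were chosen by name, and each was read through a probe set that the platform annotation maps to that gene alone. All 10 were measured, out of 19938 genes, each by 1 probe set. The study followed mouse embryonic stem cells (ESCs) without EED, which belongs to the core of Polycomb repressive complex 2 (PRC2), and wild-type ESCs on day 0 and as embryoid bodies, aggregates in which ESCs differentiate, on days 3 and 7. Its title concerns the silencing of pluripotency genes by EED during differentiation. RNA was measured on 24 Affymetrix Mouse Gene 1.0 ST arrays, 2 for each of 4 clones on each day. The clones were Eed knockout (KO) of line E14, Eed KO of line J1, wild type (WT) of line J1 and WT of line V6.5. Per the labels' protocols all grew on mitomycin C-inactivated fibroblast feeders with LIF, which holds ESCs in the undifferentiated state. The embryoid bodies were begun in hanging drops of feeder-depleted cells without LIF. Each genotype was thus 2 clones, and J1 was the only line present in both genotypes.

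Blood vessels form when mesodermal precursors turn into endothelial cells. KDR (VEGFR2) is the main signalling receptor for vascular endothelial growth factor A (VEGF-A) and marks the mesoderm that gives rise to endothelium and blood, while FLT1 (VEGFR1) binds VEGF tightly and limits its action. NRP1 and NRP2 are neuropilins, co-receptors for VEGF and for class 3 semaphorins, and are also made by non-endothelial cells such as neurons. TEK (TIE2) is the receptor for angiopoietins and TIE1 its partner. CDH5 (VE-cadherin) and PECAM1 (CD31) hold endothelial cells together, and EMCN is a sialomucin of capillary and venous endothelium. ETV2 is an ETS-family transcription factor that acts briefly at the start of endothelial and blood development. PECAM1 is also present on undifferentiated mouse ESCs.

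Values are on the log2 scale of robust multiarray averaging (RMA), where a difference of 1 is a 2-fold difference. A gene is called where limma's Benjamini-Hochberg adjusted p over all genes is under 0.05 and the difference is at least 2-fold, and only called genes are said to be higher or lower, or to have risen or fallen. Means carry the SD of 4 arrays, differences carry limma's standard error (SE), and every adjusted p is limma's. The labels do not say whether the 2 arrays of a clone and day came from separate cultures. What the p-values measure is the spread among these samples, and it may be technical. In these bulk samples, fewer endothelial cells and less RNA per cell cannot be told apart.

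Repeat arrays of a clone and day correlated across genes at r = 0.9899 to 0.9949 in 11 of the 12 pairs and had 21 to 163 genes at least 2-fold apart. The exception was WT J1 on day 7, with r = 0.9619 and 1256 such genes. In that pair 7 of the 10 endothelial genes lay at least 2-fold apart, and the KO and WT differences of day 7 are given below with and without each of its arrays. Eed read 7.29 ± 0.20 in KO and 10.73 ± 0.32 in WT on day 0, 6.34 ± 0.50 in KO and 10.03 ± 0.35 in WT on day 3, and 6.30 ± 0.23 in KO and 9.53 ± 0.19 in WT on day 7 (SD, n = 4 each). All KO arrays lay below all WT arrays on each day. The sources used here do not give the deleted exons.

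Most of these genes rose between days 3 and 7 in WT and fewer did so in KO. In WT, 9 of the 10 genes rose on day 7 against day 3, all but Etv2, where 6.23% of all genes were called and 3.78% rose. In KO, 3 of the 10 rose over the same days, Emcn, Nrp1 and Cdh5, where 2.00% of all genes were called and 1.65% rose. The median change of the 10 genes was 0.66 in KO and 2.32 in WT, beside −0.06 in KO and −0.04 in WT over all genes. The change itself was smaller in KO for 4 genes, Nrp1, Kdr, Nrp2 and Flt1, with no gene called in the other direction, in a comparison that called 2.56% of all genes (1.20% with a smaller or more negative change in KO). That last count ran from 3 to 8 when single arrays were left out. The highest came without WT J1 replicate 1 of day 7, where 4.23% of all genes were called. The count was 7 without the WT J1 arrays of day 7. Without the WT V6.5 clone 5 genes rose in WT (Nrp1, Cdh5, Kdr, Nrp2 and Pecam1), and without the KO J1 clone 1 rose in KO (Nrp1). The count of smaller changes in KO was 1 (Nrp1) without the V6.5 clone and 2 (Nrp1 and Nrp2) when the arrays of a clone and day were averaged.

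**Figure D1:**
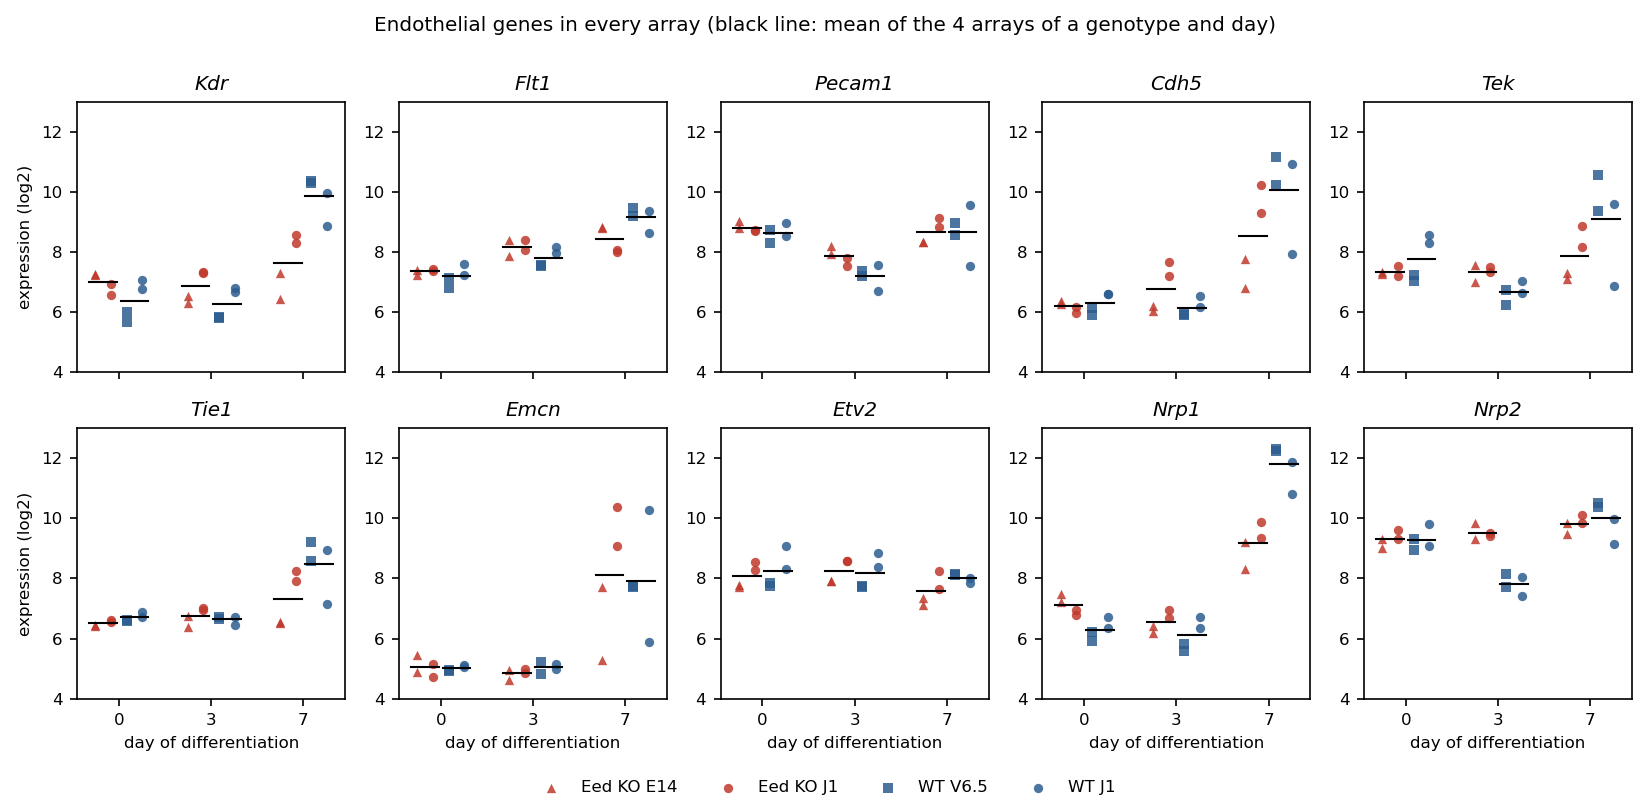
Log2 expression of the 10 genes (y axis) in every array by day of differentiation (x axis), Eed KO in red left of WT in blue, with a symbol for each line and a black line at the mean of 4 arrays. On day 7 Nrp1 and Kdr separate KO from WT, while Cdh5, Tek, Tie1 and Emcn spread widely within each genotype.

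On day 7, 3 of the 10 genes were lower in KO than in WT, Nrp1, Kdr and Tie1, and none was higher, where 4.36% of all genes were called and 1.28% were lower. The median difference of the 10 genes was −0.95, beside −0.04 over all genes. On day 3, Nrp2 was higher in KO and no other of the genes was called, where 0.757% of all genes were called and 0.667% were higher. On day 0, limma called 0 of the 10 between KO and WT, and 1 of them, Nrp1, had an unadjusted p under 0.05, where 0.552% of all genes were called. Removal of single arrays gave 2 to 5 lower genes on day 7. It gave 5 (also Cdh5 and Tek) when WT J1 replicate 1 was removed, where 5.42% of all genes were called.

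**Figure D2:**
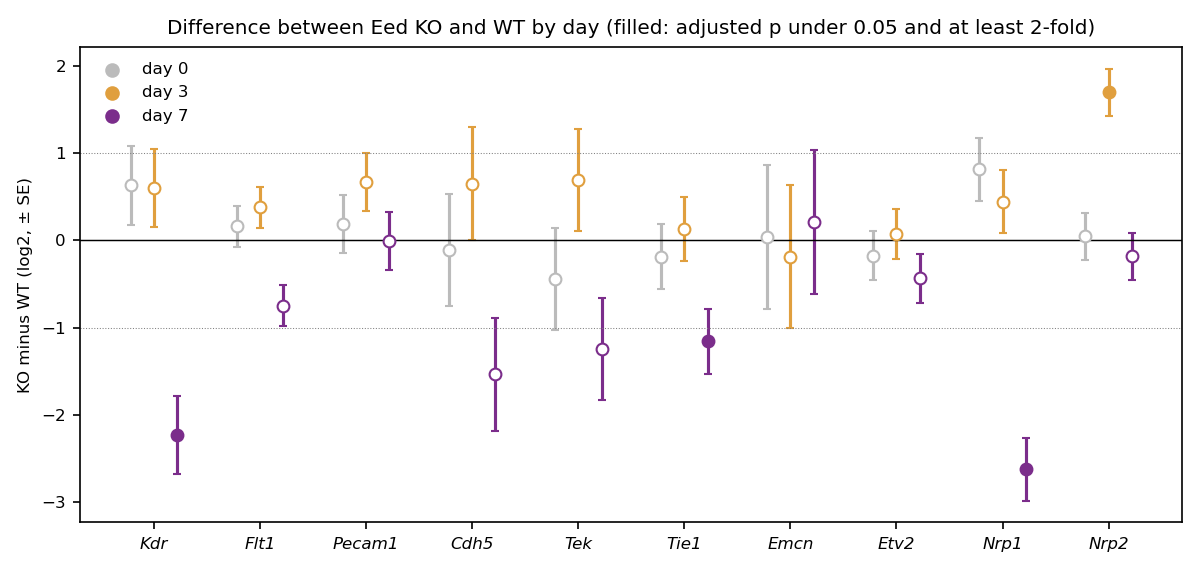
Difference of Eed KO minus WT (log2, y axis) for each gene (x axis) on days 0, 3 and 7, with SE bars; filled points are called and dotted lines mark 2-fold. The filled points are Nrp2 on day 3 and Kdr, Tie1 and Nrp1 on day 7.

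Promoter sequence is shown for 5 genes: Kdr, Nrp1 and Tie1, lower in KO on day 7, Nrp2, higher in KO on day 3, and Emcn, which was not called between KO and WT. PRC2 binds mainly at CpG-rich promoters in ESCs, so CG dinucleotides are in capitals. Each sequence is the 250 bases before the annotated start, on the gene's strand, from RefSeq on GRCm38.p6. The promoter table matched 8 of the 10 genes; those of Pecam1 and Cdh5 were not used here. Kdr lies at chr5:75978456-75978705 (minus strand), Nrp1 at chr8:128358823-128359072 (plus), Nrp2 at chr1:62703067-62703316 (plus), Tie1 at chr4:118489850-118490099 (minus) and Emcn at chr3:137340828-137341077 (plus).
Kdr: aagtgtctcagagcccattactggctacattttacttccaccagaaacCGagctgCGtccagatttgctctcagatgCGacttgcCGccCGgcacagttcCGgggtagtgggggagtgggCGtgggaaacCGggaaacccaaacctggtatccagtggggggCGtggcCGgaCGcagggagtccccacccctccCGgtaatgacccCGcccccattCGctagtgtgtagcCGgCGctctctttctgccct
Nrp1: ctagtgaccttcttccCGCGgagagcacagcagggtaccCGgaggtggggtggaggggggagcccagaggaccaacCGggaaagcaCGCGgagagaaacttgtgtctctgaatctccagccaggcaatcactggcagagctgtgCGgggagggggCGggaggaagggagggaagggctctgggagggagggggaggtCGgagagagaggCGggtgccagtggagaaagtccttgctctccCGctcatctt
Nrp2: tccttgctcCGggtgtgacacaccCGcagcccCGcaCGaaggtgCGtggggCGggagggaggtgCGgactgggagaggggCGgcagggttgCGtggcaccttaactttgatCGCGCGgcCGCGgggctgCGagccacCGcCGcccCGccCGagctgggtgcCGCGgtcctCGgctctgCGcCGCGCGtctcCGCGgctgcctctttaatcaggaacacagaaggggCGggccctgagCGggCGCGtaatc
Tie1: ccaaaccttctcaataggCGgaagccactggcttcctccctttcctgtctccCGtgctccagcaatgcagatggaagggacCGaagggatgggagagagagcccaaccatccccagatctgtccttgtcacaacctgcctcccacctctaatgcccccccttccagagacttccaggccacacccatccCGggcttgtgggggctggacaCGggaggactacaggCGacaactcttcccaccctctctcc
Emcn: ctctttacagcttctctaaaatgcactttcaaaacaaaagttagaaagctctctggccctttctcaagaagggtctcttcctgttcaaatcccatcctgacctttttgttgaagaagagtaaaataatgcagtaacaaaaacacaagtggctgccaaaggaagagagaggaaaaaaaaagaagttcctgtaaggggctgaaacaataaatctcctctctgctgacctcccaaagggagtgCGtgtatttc

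CG dinucleotides numbered 32 in the Nrp2 sequence, 23 in Flt1, 16 in Kdr, 11 in Nrp1, 6 in Tie1, 3 in Etv2, 2 in Tek and 1 in Emcn. The median over 32851 promoters of the same length was 6, and 95.4% of them had fewer than Nrp2, 74.6% fewer than Kdr, 64.4% fewer than Nrp1 and 7.9% fewer than Emcn. Letters of ETS-type motifs were searched on both strands. CCGGAA, found in 12.03% of all promoters, occurred once among these genes, in Kdr. CAGGAA, found in 25.71%, occurred in Tek, Tie1, Emcn, Etv2 and Nrp2. The GATA-type letters AGATAA (9.99% of promoters) and the FOX-type letters TAAACA (12.03%) were in none of the 8 sequences. The GC box letters GGGCGG (32.74%) were in Nrp2, Flt1, Kdr and Nrp1. These are matches of letters in a short window and describe no binding.

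Nrp1 (probe set 10576639) had the widest day 7 difference of the 10 genes. On day 7 it read 8.31 and 9.23 in KO E14 and 9.90 and 9.36 in KO J1, against 10.83 and 11.89 in WT J1 and 12.30 and 12.26 in WT V6.5. All 4 KO arrays lay below all 4 WT arrays, which 7.13% of all genes also showed. The means were 9.20 ± 0.66 in KO and 11.82 ± 0.68 in WT (SD, n = 4 each), a difference of −2.62 (SE 0.362, adjusted p = 1.6e-05). Both genotypes gained Nrp1 from day 3, by 2.64 in KO (SE 0.308, adjusted p = 4.1e-06) and 5.70 in WT (SE 0.308, adjusted p = 2.3e-12). The gain was smaller in KO by −3.06 (SE 0.435, adjusted p = 1.1e-04). Without WT J1 replicate 1 the day 7 difference was −2.99 (adjusted p = 3.8e-07) and without replicate 2 it was −2.61 (adjusted p = 5.0e-05). That call held when any clone or any array was left out.

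On day 0 the groups lay the other way round. Nrp1 then read 7.21, 7.49, 6.96 and 6.78 in KO, against 6.35, 6.72, 5.91 and 6.21 in WT. Every KO array was above every WT array, as for 6.33% of all genes, but the difference of 0.81 (SE 0.362) had an adjusted p of 0.34 and was not called. The 5 feeder fibroblast markers averaged 8.02 to 9.06 across KO arrays and 7.62 to 8.02 across WT arrays on that day, with none of the 5 called. A wider list of 10 fibroblast genes averaged 8.06 to 9.32 in KO and 7.47 to 7.82 in WT. Of those 10, 3 were higher in KO (median difference 1.01, beside −0.03 over all genes), where 0.552% of all genes were called. The part of feeder cells in the Nrp1 values was not tested. On day 3 the means were 6.56 ± 0.33 in KO and 6.12 ± 0.50 in WT, and the arrays overlapped.

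Kdr (probe set 10530692) read 6.45 and 7.30 in KO E14 and 8.57 and 8.31 in KO J1 on day 7, against 8.87 and 9.99 in WT J1 and 10.38 and 10.32 in WT V6.5. Again no KO array reached the lowest WT array, and KO J1 lay nearer to WT than KO E14 did. The difference was −2.23 (SE 0.451, adjusted p = 0.0011). WT embryoid bodies gained 3.61 from day 3 (SE 0.383, adjusted p = 1.6e-07), and the KO change of 0.78 (SE 0.383, adjusted p = 0.21) was not called. The changes differed by −2.83 (SE 0.542, adjusted p = 0.0022), with an adjusted p of 0.22 without the WT V6.5 clone and 0.084 with averaged arrays. Without WT J1 replicate 1 the day 7 difference was −2.63 (adjusted p = 7.5e-05) and without replicate 2 it was −2.23 (adjusted p = 0.0024). Kdr lost its day 7 call with averaged arrays (adjusted p = 0.058) and without the E14 clone, where the difference was −1.45 (adjusted p = 0.058).

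On the earlier days Kdr was called between the WT lines on day 0. On that day the WT V6.5 arrays read 6.0 and 5.66 and the WT J1 arrays 7.07 and 6.78, a difference of −1.09 (SE 0.278, adjusted p = 0.038), a call lost after removal of any 1 of 12 arrays (adjusted p 0.050 to 0.29), where 0.953% of all genes were called and 0.692% were lower. KO E14 then read 7.24 and 7.27 and KO J1 6.58 and 6.95. On day 3 Kdr read 6.56 and 6.31 in KO E14 and 7.35 and 7.30 in KO J1, against 6.67 and 6.80 in WT J1 and 5.84 and 5.82 in WT V6.5. The KO and WT difference was called on neither day (0.63 on day 0 and 0.60 on day 3).

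Flt1 (probe set 10535807) took a flatter course. It read 7.37 ± 0.08 in KO and 7.20 ± 0.33 in WT on day 0, 8.19 ± 0.26 in KO and 7.81 ± 0.31 in WT on day 3, and 8.43 ± 0.45 in KO and 9.18 ± 0.37 in WT on day 7. The day 7 difference of −0.75 (SE 0.236, adjusted p = 0.031) was past the p threshold but under 2-fold. It was −0.96 (adjusted p = 0.0028) without WT J1 replicate 1 and −0.70 (adjusted p = 0.066) without replicate 2, and −1.13 (adjusted p = 0.011), a call, without the E14 clone. Flt1 rose in WT by 1.37 from day 3 to day 7 (SE 0.200, adjusted p = 1.2e-05), against a change of 0.25 in KO (SE 0.200, adjusted p = 0.46). These changes differed by −1.12 (SE 0.283, adjusted p = 0.019), a call lost without any 1 of 3 arrays (lowest adjusted p 0.045, under 2-fold) and without the KO J1 or WT V6.5 clone (adjusted p = 0.41 and 0.49). On day 7 KO E14, at 8.84 and 8.79, lay above KO J1, at 8.02 and 8.08, the opposite of the order for Kdr.

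Nrp2 (probe set 10346843) was called on day 3 and not on day 7. On day 3 it read 9.32 and 9.85 in KO E14 and 9.50 and 9.41 in KO J1, against 8.03 and 7.40 in WT J1 and 7.73 and 8.15 in WT V6.5. All KO arrays were above all WT arrays, as for 6.12% of all genes, and the difference was 1.69 (SE 0.270, adjusted p = 8.4e-04). In J1 alone the difference was 1.74 (SE 0.288, adjusted p = 0.0026), where 1.00% of all genes were called and 0.742% were higher. Between E14 KO and V6.5 WT it was 1.65 (SE 0.288, adjusted p = 0.0020), where 1.74% were called and 1.33% were higher. The overall difference is made up of these pairs, so they are no separate support for it. In the E14 and V6.5 pair line and genotype cannot be told apart. With averaged arrays the adjusted p of the overall difference was 0.051, and without WT J1 replicate 2 of day 3 that of the J1 difference was 0.087.

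Nrp2 dipped on day 3 in WT. It fell in WT by −1.45 from day 0 to day 3 (SE 0.230, adjusted p = 1.3e-04) and rose by 2.18 from day 3 to day 7 (SE 0.230, adjusted p = 1.4e-07). In KO the changes were 0.20 and 0.30, neither called. The difference of the changes from day 0 to day 3 was 1.65 (SE 0.325, adjusted p = 0.049), where 0.0502% of all genes, 10 in number, were called and 0.0301% had the higher change in KO. That call was lost without any 1 of 21 of the 24 arrays (adjusted p 0.052 to 0.18), with averaged arrays, without the clone block, with a replicate block and without any clone other than WT J1. On day 7 Nrp2 read 9.82 ± 0.26 in KO and 10.01 ± 0.62 in WT, a difference of −0.18 (adjusted p = 0.72). It was −0.47 (adjusted p = 0.19) without WT J1 replicate 1 and −0.16 (adjusted p = 0.80) without replicate 2.

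Of the angiopoietin receptor pair, Tie1 was lower in KO on day 7 and Tek was not called. Tie1 (probe set 10515771) read 6.57 and 6.51 in KO E14 and 8.26 and 7.92 in KO J1, against 7.15 and 8.94 in WT J1 and 9.23 and 8.57 in WT V6.5. WT J1 replicate 1 lay below both KO J1 arrays, so the groups overlapped. The difference was −1.16 (SE 0.371, adjusted p = 0.034). It was −1.60 (adjusted p = 3.0e-04) without WT J1 replicate 1 and −0.97 (adjusted p = 0.099) without replicate 2. Without any 1 array of KO E14 or WT V6.5 on day 7 its adjusted p ran from 0.058 to 0.12, and with the arrays of a clone and day averaged it was 0.13. The difference was −0.38 (adjusted p = 0.65) without the E14 clone and −0.73 (adjusted p = 0.31) without the V6.5 clone.

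Tek (probe set 10505954) read 7.12 and 7.32 in KO E14 and 8.87 and 8.16 in KO J1, against 6.89 and 9.61 in WT J1 and 10.59 and 9.39 in WT V6.5. The lowest array of all 8 was WT J1 replicate 1. The difference was −1.25 (SE 0.583, adjusted p = 0.16), and −2.04 (adjusted p = 6.2e-04) without that array. It was −1.07 (adjusted p = 0.30) without WT J1 replicate 2, and over all single arrays left out it ran from −2.04 to −0.73. In WT, Tek rose by 2.45 (SE 0.496, adjusted p = 4.8e-04) and Tie1 by 1.83 (SE 0.316, adjusted p = 8.7e-05) from day 3. In KO the changes were 0.51 for Tek and 0.55 for Tie1, neither called. On day 0 Tek was above 8 in the WT J1 arrays (8.30 and 8.57) and between 7.04 and 7.55 in the other 6. WT V6.5 minus WT J1 was then −1.30 (SE 0.543, adjusted p = 0.28), not called with all arrays but called without either WT J1 array of day 7. The WT change of Tek from day 0 to day 3 was −1.12 (SE 0.496, adjusted p = 0.17). It was called without WT J1 replicate 1 of day 7 (adjusted p = 0.015).

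The junction cadherin Cdh5 (probe set 10574438) changed from day 3 to day 7 by 1.75 in KO (SE 0.547, adjusted p = 0.042) and 3.94 in WT (SE 0.547, adjusted p = 6.3e-06). The KO rise was near the threshold and not called without any 1 of 9 arrays (adjusted p 0.050 to 0.16), with averaged arrays (0.13), without the clone block (0.078) or after a repeated quantile normalization (0.055). It was also not called without KO E14 (0.10), KO J1 (0.43) or WT V6.5 (0.092). On day 7 it read 6.83 and 7.78 in KO E14 and 10.23 and 9.32 in KO J1, against 7.95 and 10.96 in WT J1 and 11.17 and 10.24 in WT V6.5. KO J1 lay within the WT range and KO E14 below it. The difference of −1.54 (SE 0.644, adjusted p = 0.11) was not called. It was −2.29 (adjusted p = 0.0024) without WT J1 replicate 1, −1.22 (adjusted p = 0.26) without WT J1 replicate 2 and −2.02 (adjusted p = 0.032) without KO J1 replicate 1. Over all single arrays left out it ran from −2.29 to −1.04.

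Emcn (probe set 10496359), the vascular sialomucin, was between 4.61 and 5.45 in all 16 arrays of days 0 and 3. On day 7 it read 5.29 and 7.71 in KO E14 and 10.37 and 9.09 in KO J1, against 5.88 and 10.28 in WT J1 and 7.76 and 7.71 in WT V6.5. KO J1 held the highest array and KO E14 the lowest. The genotypes averaged 8.12 ± 2.17 in KO and 7.91 ± 1.81 in WT, a difference of 0.21 (SE 0.823, adjusted p = 0.90) whose error leaves differences of either sign possible. It was −0.53 (adjusted p = 0.72) without WT J1 replicate 1 and 1.03 (adjusted p = 0.41) without replicate 2. Emcn rose by 3.26 in KO (SE 0.700, adjusted p = 0.0034) and by 2.86 in WT (SE 0.700, adjusted p = 0.0028), with an adjusted p of 0.35 for KO without the KO J1 clone and 0.11 for WT without the V6.5 clone.

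Pecam1 (probe set 10392221) started high, dipped and came back. In KO it read 8.82 ± 0.15 on day 0, 7.88 ± 0.27 on day 3 and 8.66 ± 0.40 on day 7, and in WT 8.64 ± 0.29, 7.22 ± 0.36 and 8.67 ± 0.87 on the same days. The dip was called in WT (−1.42, SE 0.286, adjusted p = 0.0015), where 2.04% of all genes were called and 1.08% fell, Nrp2 being the other gene of the 10. In KO it was −0.94 (SE 0.286, adjusted p = 0.049), under 2-fold, and limma called 0 of the 10 genes from day 0 to day 3, with 2 at an unadjusted p under 0.05, where 1.17% of all genes were called. Without the WT V6.5 clone the WT dip had an adjusted p of 0.055. Pecam1 then rose by 1.46 in WT (SE 0.286, adjusted p = 3.5e-04), against 0.78 in KO (adjusted p = 0.084). On day 7 the WT J1 arrays read 7.53 and 9.59, below and above all 4 KO arrays, and the KO and WT difference was −0.01 (SE 0.336, adjusted p = 0.99). It was −0.41 (adjusted p = 0.34) without WT J1 replicate 1 and 0.32 (adjusted p = 0.57) without replicate 2.

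The transcription factor gene Etv2 (probe set 10562064) was not called in any comparison of genotypes or days with all arrays. It read 8.07 ± 0.40 in KO and 8.25 ± 0.61 in WT on day 0, 8.24 ± 0.38 in KO and 8.18 ± 0.55 in WT on day 3, and 7.59 ± 0.49 in KO and 8.03 ± 0.14 in WT on day 7. The day 7 difference was −0.56 (adjusted p = 0.22) without WT J1 replicate 1 and −0.49 (adjusted p = 0.33) without replicate 2. From day 3 to day 7 its change was −0.65 in KO (adjusted p = 0.087) and −0.15 in WT (adjusted p = 0.71). Between the WT lines it was past the p threshold on days 0 and 3, WT V6.5 minus WT J1 being −0.91 on day 0 (SE 0.216, adjusted p = 0.026) and −0.89 on day 3 (SE 0.216, adjusted p = 0.035), both under 2-fold. E14 KO minus V6.5 WT on day 7 was −0.90 for Etv2 (SE 0.216, adjusted p = 0.0058), also past the p threshold and under 2-fold. Without KO E14 replicate 2 of day 7 that difference was −1.01. Line and genotype cannot be told apart in that pair. Days between 3 and 7 were not analysed here.

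The KO and WT difference of day 7 depended on the pair of clones. Within J1, 1 of the 10 genes, Nrp1, was lower in KO (−1.73, SE 0.299, adjusted p = 7.3e-04), where 4.29% of all genes were called and 1.38% were lower. Kdr (−0.99, SE 0.278, adjusted p = 0.024) and Flt1 (−0.96, SE 0.214, adjusted p = 0.0056) were just under 2-fold. Cdh5 (0.33), Tek (0.27), Tie1 (0.05), Emcn (1.65), Pecam1 (0.43) and Nrp2 (0.41) had positive differences, none of them called. Between E14 KO and V6.5 WT, 5 genes were lower, Nrp1 (−3.51, SE 0.299), Kdr (−3.48, SE 0.278), Cdh5 (−3.40, SE 0.587), Tek (−2.77, SE 0.543) and Tie1 (−2.36, SE 0.347), where 6.68% of all genes were called and 2.20% were lower. The 2 differences themselves differed for these 5 genes, by −3.73 for Cdh5 (SE 0.830, adjusted p = 0.018), −3.04 for Tek (SE 0.768, adjusted p = 0.033), −2.49 for Kdr (SE 0.394, adjusted p = 0.0018), −2.41 for Tie1 (SE 0.490, adjusted p = 0.010) and −1.78 for Nrp1 (SE 0.423, adjusted p = 0.025). That comparison called 2.35% of all genes and 1.08% in this direction. Of these, Cdh5 lost its call without any 1 of 3 arrays (adjusted p 0.075 to 0.085), Tek of 5 (0.060 to 0.14, and 0.051 after a repeated quantile normalization), Nrp1 of 4 (0.068 to 0.12) and Tie1 of 2 (0.050 to 0.051), while Kdr kept it. Line and genotype cannot be told apart in the E14 and V6.5 pair. On day 0 Kdr (1.42, adjusted p = 0.0037) and Nrp1 (1.29, adjusted p = 0.012) were higher in E14 KO than in V6.5 WT, where 1.97% of all genes were called and 1.58% were higher. Without V6.5 replicate 2 of day 0 Kdr had an adjusted p of 0.060, and without V6.5 replicate 1 or E14 replicate 2 Nrp1 had 0.14. In J1 on day 0, limma called 0 of the 10 genes (0 at an unadjusted p under 0.05), where 0.456% of all genes were called. The differences of the 2 pairs from each other were called for 0 of the 10 on day 0 (2 at an unadjusted p under 0.05, 0.833% of all genes called) and 0 on day 3 (0 at an unadjusted p under 0.05, 0.507% called). On day 0 all 10 of these differences were positive (median 0.41, beside 0.03 over all genes). Kdr was at 1.59 (SE 0.394), opposite in sign to day 7, and was called without any 1 KO E14 or WT J1 array of day 7.

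The J1 result turned on the divergent WT J1 pair. Without its replicate 1, J1 KO was lower for 5 genes, Nrp1 (−2.26), Kdr (−1.55), Flt1 (−1.33), Cdh5 (−1.18) and Tek (−1.09), where 8.28% of all genes were called. Without replicate 2, J1 KO was higher for Emcn (3.85), Cdh5 (1.83), Tek (1.63) and Pecam1 (1.46) and lower for Nrp1 (−1.20), where 4.52% were called. Nrp1 was thus the gene lower in J1 KO in all 3 fits. In these fits the lone WT J1 array is taken to vary like the other groups.

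**Figure D3:**
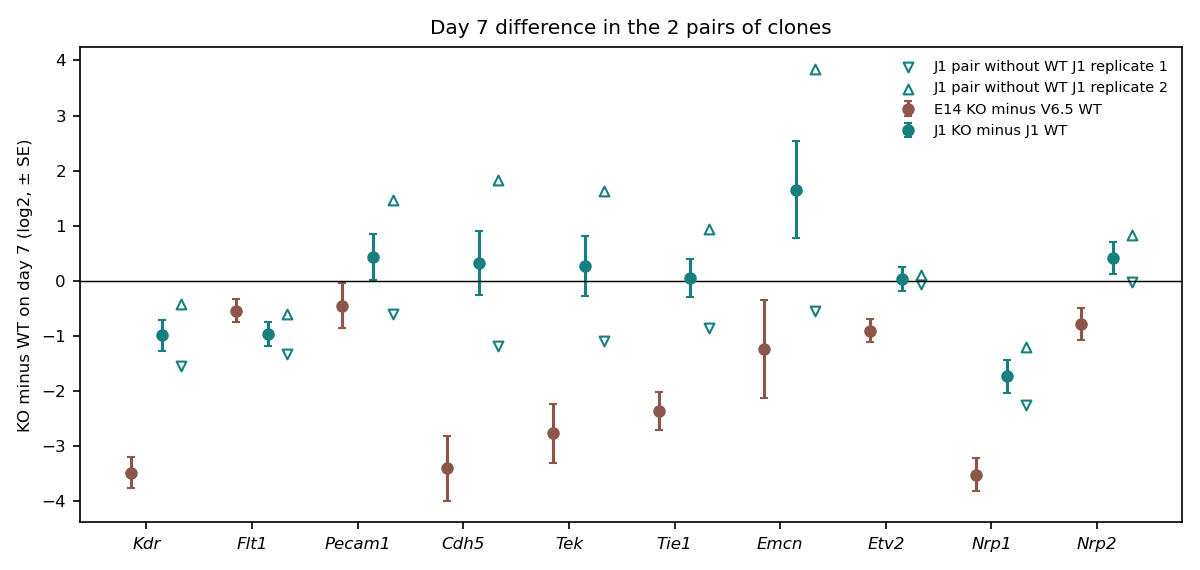
Day 7 difference of KO minus WT (log2, y axis) for each gene (x axis) between E14 KO and V6.5 WT (brown) and between J1 KO and J1 WT (teal), with SE bars; open triangles give the J1 difference without WT J1 replicate 1 or 2. For Nrp1, Kdr and Flt1 all symbols lie below 0, and for the other genes the J1 triangles lie on both sides of it.

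The KO lines also differed from each other on day 7. E14 KO was lower than J1 KO for Cdh5 (−2.47, SE 0.587, adjusted p = 0.024), Kdr (−1.57, SE 0.278, adjusted p = 0.0042) and Tie1 (−1.55, SE 0.347, adjusted p = 0.018), where 0.998% of all genes were called and 0.256% were lower. Each of the 3 lost its call without some single KO array of day 7: Cdh5 for 3 arrays (adjusted p 0.070 to 0.22), Kdr for 2 (0.053 to 0.067) and Tie1 for 4 (0.079 to 0.14). Emcn was −3.23 (SE 0.881) with an adjusted p of 0.053, and was called with a replicate block (adjusted p = 0.049), with the filter on low values (0.048) and without KO E14 replicate 2 of day 7 (0.031) or either WT J1 array of day 7 (3.5e-04 each). Tek was −1.29 (SE 0.543, adjusted p = 0.26) and, like Emcn, was called without either WT J1 array of day 7. Nrp1 was −0.86 (SE 0.299, adjusted p = 0.15), and −1.32 without KO E14 replicate 2 of day 7. Etv2 was −0.73 (SE 0.216, adjusted p = 0.078), and −1.03 without KO J1 replicate 1 of day 7. Nrp2 was −0.31 (adjusted p = 0.77) and Pecam1 −0.66 (adjusted p = 0.55). Flt1 alone was positive, at 0.77 (SE 0.214, adjusted p = 0.058). Of the 10 genes, 8 had an unadjusted p under 0.05 on that day. Between the KO lines limma called 0 of the 10 on day 0 (1 at an unadjusted p under 0.05, 0.396% of all genes called) and 0 on day 3 (3 at an unadjusted p under 0.05, 0.0451% called). Between V6.5 WT and J1 WT it called 0 on day 3 (4 at an unadjusted p under 0.05, 0.637% called). On day 7 limma called 0 of the 10 genes between V6.5 WT and J1 WT, where 0.993% of all genes were called, and 6 had an unadjusted p under 0.05. Leaving out WT J1 replicate 1 gave a V6.5 and J1 difference of −0.25 for Cdh5 and −0.04 for Tie1, against 1.26 and 0.86 with all arrays, and Emcn was then lower in V6.5 (−2.54, adjusted p = 0.0085), where 2.94% of all genes were called. Without WT J1 replicate 2 instead, V6.5 was higher for 8 of the 10, all but Flt1 and Etv2, with Tek at 3.10 and Emcn at 1.86, where 3.95% of all genes were called.

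Other genes of the same pathways, chosen by role, showed a mixed picture between KO and WT on day 7, where 4.36% of all genes were called. Of 8 VEGF and angiopoietin ligand genes, 1 was higher and none lower, with a median difference of −0.31, beside −0.04 over all genes. Vegfd, a ligand known for lymphatic growth, was higher (1.44, SE 0.216). Angpt1 and Angpt2, the angiopoietin ligands of TEK, rose in KO from day 3, by 1.85 and 1.21, and in WT by 2.30 and 1.06. Of 11 co-receptors and partners, 2 were higher and 1 lower, with a median of −0.39. The semaphorin genes Sema3c (1.87, SE 0.419) and Sema3e (1.21, SE 0.204) were higher and the semaphorin receptor gene Plxna4 was lower (−1.53, SE 0.251).

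Among 12 endothelial transcription factors 1 was higher, Foxc2 (1.06, SE 0.331), and 1 lower, Lmo2 (−1.10, SE 0.303), a partner of blood and vessel factors, with a median of −0.42. Leaving out single arrays gave 0 to 4 called of the 12, with 0 without WT V6.5 replicate 1 of day 7 and 4 without WT J1 replicate 1 of day 7. From day 3 to day 7, 2 of the 12 rose in KO and 8 in WT. Fli1, an ETS factor of blood and vessels, rose by 1.47 in KO and 2.13 in WT. The list of other endothelial surface and junction genes had 3 of 23 lower at day 7 (median −0.44): the apelin receptor gene Aplnr (−2.82, SE 0.473), Ecscr (−1.20, SE 0.402) and Egfl7 (−1.13, SE 0.295). That count ran from 1 to 7 when single arrays were left out, with 1 without WT V6.5 replicate 1 or WT J1 replicate 2 of day 7, 5 without KO J1 replicate 1 and 7 without WT J1 replicate 1. Of these 23, 1 rose in KO from day 3 to day 7, Adgrl4 (1.48), and 10 in WT, Adgrl4 among them (2.86). Of 8 arterial and Notch genes 1 was lower, Hey2 (−1.78, SE 0.195).

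Markers of other cell types moved with genotype on day 7, and their part in the endothelial differences was not tested. In the erythroid and blood list KO was lower for 11 of 12 (median −1.51), with globin genes of primitive red cells at the head, Hbb-bh1 at −7.40, Hbb-y at −6.61 and Hba-x at −5.79. Hbb-bh1 read 5.49 ± 0.60 in KO and 12.90 ± 0.39 in WT. Cardiac genes were lower in 5 of 10, led by Tbx20 (−2.80), early and lateral mesoderm genes in 2 of 7 (Foxf1, −2.95, and Hand1, −2.56), fibroblast genes in 3 of 10 (Postn, −2.25) and mural genes in 1 of 9 (Acta2, −3.24). All 10 pluripotency genes were higher, led by Dppa2 (4.29), and Pou5f1 read 11.80 ± 0.22 in KO and 8.68 ± 0.49 in WT. Of 9 neural genes 1, Stmn2, was higher (1.75). Leaving out single arrays gave 1 to 5 called for the fibroblast list, 1 to 3 for the mural list and 1 to 4 for the neural list. The highest of each came without WT J1 replicate 1 of day 7, the fibroblast count was 1 without WT V6.5 replicate 1, and the mural count was 2 without KO E14 replicate 2.

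The 8 defining endothelial markers fixed for the cell type check (Cldn5, Esam, Egfl7, Cd34, Robo4, Icam2, Clec14a and Sox18) averaged 7.15 to 8.10 across KO arrays and 7.10 to 8.42 across WT arrays of day 7. They averaged 7.24 to 7.53 in KO and 6.92 to 7.36 in WT on day 0. Between KO and WT on day 7, 1 of the 8 was called, Egfl7. The 4 measured erythroid markers, by contrast, averaged 5.46 to 6.35 in KO and 10.98 to 12.69 in WT, all 4 called lower. The array gives no zero, so no marker could be scored as absent.

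WT J1 replicate 1 stood apart in several of these lists. On day 7 the endothelial surface list averaged 6.92 and 6.94 in KO E14 and 7.86 and 7.66 in KO J1, against 7.08 and 8.37 in WT J1 and 8.31 and 7.84 in WT V6.5. The KO J1 arrays thus lay within the WT range, and WT J1 replicate 1 and WT V6.5 replicate 2 lay within the KO range. The erythroid list averaged 6.53, 6.29, 6.74 and 6.63 in the KO arrays, against 8.54 and 10.18 in WT J1 and 9.65 and 9.20 in WT V6.5, with no overlap. The pluripotency list averaged 11.14 to 11.70 in KO and 7.64 to 8.42 in WT, WT J1 replicate 1 being the highest WT array.

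**Figure D4:**
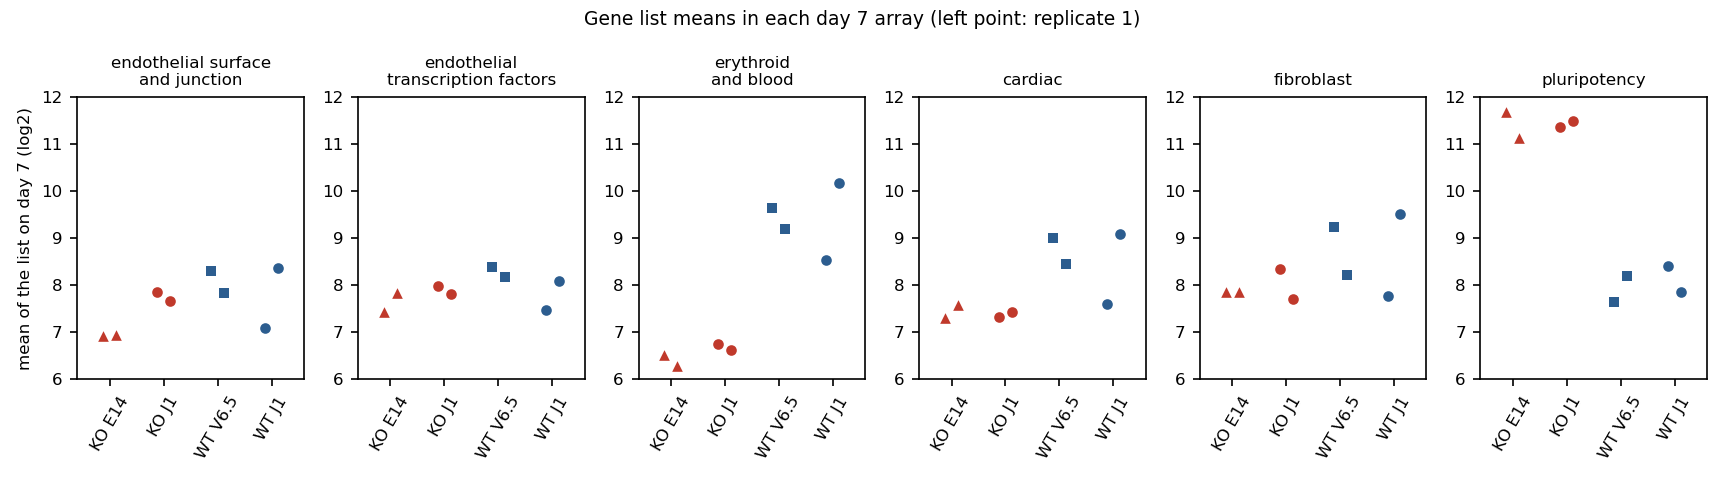
Mean log2 expression of 6 gene lists (y axis) in each day 7 array, by clone (x axis), with replicate 1 left of replicate 2 and Eed KO left of WT. The erythroid and pluripotency lists separate KO from WT widely and the cardiac list narrowly, while the endothelial and fibroblast lists overlap. In each endothelial list WT J1 replicate 1 lies within the KO range, and in the surface list WT V6.5 replicate 2 does too.

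Over the 24 arrays, which share clones and days, the genes fell into tighter and looser company. Cdh5 and Tie1 correlated at r = 0.956, Kdr and Nrp1 at 0.945 and Kdr and Cdh5 at 0.929 (n = 24 arrays). Pecam1 and Flt1 were at 0.053, and Etv2 lay between −0.19 and 0.15 with each of the other 9. The 3 genes most like Kdr over the arrays were Lama4 (r = 0.964), Nrp1 and Lmo2 (0.945). Those most like Cdh5 were Adgrl4 (0.980), S1pr1 (0.968) and Tie1, and those most like Tie1 were Klhl6 (0.965), Stab1 (0.964) and Cd93 (0.963). Tek was closest to Ecscr (0.885), Hhex (0.878) and Tie1 (0.867), and Emcn to Angpt2 (0.967), Adgrl4 (0.927) and Sparcl1 (0.905).

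Nrp1 was closest to Adgra2 (0.978), Bmp5 (0.970) and Bmp2 (0.968), and Flt1 to Slc22a23 (0.965), Fras1 (0.960) and Dsc2 (r = 0.946). Nrp2 had S100a10 (0.874), Zdhhc20 (0.864) and Zfp948 (0.858). Pecam1 had Arhgdib (0.869), Junb (0.854) and Zc3h7a (0.836). For Etv2 the highest values were lower, with Npy1r (0.751), Rhbdd3 (0.740) and Phf7 (0.736). These correlations describe the arrays and carry no test.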

How the data were processed

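Total RNA of 24 mouse ESC and embryoid body samples was hybridised to Affymetrix Mouse Gene 1.0 ST arrays. The authors deposited RMA values, log2 expression per probe set, computed in Affymetrix Power Tools according to the submitters' processing notes. Background correction, quantile normalization and probe summarisation are the steps of RMA. Versions, genome build and annotation: not given in the sources used here. Log2 values near the background compress differences, quantile normalization removes changes in total RNA per cell, and the number of arrays limits precision. Of 35556 probe sets, 23410 were listed in GEO's platform annotation. Of these 21789 had 1 gene symbol and were used, 1621 had several, and 12146 were not listed. Entrez identifiers of 21698 matched RefSeq (GRCm38.p6). The probe set with the highest mean stood for a gene, which left 19938 genes, without a filter on low values.

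Fits used limma 3.58.1 and statmod 1.5.0 in R 4.3.3. KO and WT, days, and their interaction came from 6 genotype-by-day means of the 24 arrays, clone being a random block (correlation 0.161, 18 residual degrees of freedom). Comparisons of lines came from 12 line-by-genotype-by-day means (12 residual degrees of freedom). P-values were adjusted by Benjamini-Hochberg over all genes of a comparison. The scripts were tested on simulated data. The alternatives were averaging the arrays of a clone and day, no clone block, a replicate block, quantile normalization, a filter on low values, no fold minimum, and leaving out each array or clone. Leaving out both WT J1 arrays of day 7, and comparing E14 KO with V6.5 WT and this pair with the J1 pair, were added after the data were seen. The genes and lists were chosen with earlier results of these data known. The rule for naming genes took all 10 in each comparison, but between single clones some differences that were not called are left out. From each of 12 lists it took up to 3 called genes with the widest day 7 difference. For each gene it took the 3 with the highest Pearson correlation over 24 arrays. Eed, Pou5f1 and Hbb-bh1 are always named. Genes given for changes from day 3 to day 7 (Angpt1, Angpt2, Fli1 and Adgrl4) and the WT J1 array that stood apart were chosen after their values were seen. The main fits did not treat same-numbered replicates as pairs. Over 66 pairs of groups the deviations of same-numbered arrays correlated at −0.397 to 0.470 (median 0.0569), with 30 pairs over 0.1.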

Additional observations from a re-analysis of the deposited data

Results flagged for a closer look

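In the change from day 0 to day 3, KO and WT differed for Nrp2 (KO minus WT 1.65 on the log2 scale, limma adjusted p = 0.049). In the change from day 3 to day 7, KO minus WT was −3.06 for Nrp1, −2.83 for Kdr, −1.88 for Nrp2 and −1.12 for Flt1, each past the threshold by the interaction term. The day 7 difference between KO and WT was itself different between the pair E14 KO and V6.5 WT and the J1 pair. That difference of differences was −3.73 for Cdh5, −3.04 for Tek, −2.49 for Kdr, −2.41 for Tie1 and −1.78 for Nrp1. It takes in the divergent WT J1 arrays of day 7. Without WT J1 replicate 1 it was −2.23 for Cdh5, −1.68 for Tek, −1.93 for Kdr, −1.51 for Tie1 and −1.26 for Nrp1. Without replicate 2 it was −5.23, −4.39, −3.05, −3.30 and −2.31 in the same order. The calls of Cdh5, Tek, Tie1 and Nrp1 were each lost without some single day 7 array of another clone, as given above. An outlier rule took the gap of 1 array from the other 3 over the range, with a critical value of 0.829 for 4 arrays. It flagged 0 of the 60 groups of 4 arrays of a genotype and day. With 4 arrays it passes wide gaps. On day 7 Cdh5 read 7.95 in WT J1 replicate 1 and 10.24 to 11.17 in the other WT arrays. Tek read 6.89 in that array and 9.39 to 10.59 in the other WT arrays.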

How the results depend on the processing

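The numbers below are counts of the 10 genes called, unless a gene is named. With the arrays of a clone and day averaged, KO against WT gave 0 on day 3 and 1 on day 7, and the genotype difference in change gave 0 from day 0 to day 3 and 2 from day 3 to day 7. The main fits did not pair samples by replicate number. With a replicate block the change from day 0 to day 3 gave 0 (Nrp2 adjusted p = 0.055), as it did without the clone block (0) and without the clone KO E14 (0), KO J1 (0) or WT V6.5 (0). Without the clone WT J1, KO against WT gave 5 on day 7 and the change from day 3 to day 7 gave 7. Without both WT J1 arrays of day 7 these were 6 and 7. The day 7 calls over all genes rose as well, from 870 with all arrays to 1165 and 1132 in these 2 fits. Shares over all genes for the change are not given here. Without WT V6.5 the latest change differed for 1 gene, WT fell for 1 gene by day 3 (Nrp2) and rose for 5 by day 7. Without KO J1, 1 gene rose in KO by day 7 (Nrp1). Without a fold minimum 2 genes changed in KO by day 3, and 3 differed in J1 on day 7. Between lines of a genotype the calls of the 3 days were added, so a gene can count on more than 1 day. Without a fold minimum these were 3 between the WT lines (Kdr on day 0 and Etv2 on days 0 and 3), and after a repeated quantile normalization 0. That normalization gave 3 genes in J1 on day 7. Leaving out 1 array gave 2 to 5 for KO against WT on day 7, 0 to 1 for KO day 3 against day 0, 0 to 1 and 3 to 8 for the 2 differences in change, and 0 to 2 and 1 to 5 for J1 on days 3 and 7. The calls added over the 3 days were then 0 to 6 between the KO lines and 0 to 10 between the WT lines. Over all genes, KO against WT called 110 on day 0, against 22 with averaged arrays, 402 without a fold minimum, 47 without KO E14, 216 without KO J1, 272 without WT J1 and 71 without WT V6.5 replicate 2 of day 0. On day 3 it called 151, against 43 with averaged arrays, 434 without a fold minimum, 53 without KO E14 and 247 without WT J1, and on day 7 it called 870, against 3250 without a fold minimum. Differences of KO minus WT that were not called could change sign. Without KO E14 these were Emcn (−0.075) and Etv2 (0.15) on day 0 and Pecam1 (0.32) on day 7. Without KO J1 they were Cdh5 (0.010) and Nrp2 (−0.10) on day 0, Cdh5 (−0.0075), Tie1 (−0.082) and Etv2 (−0.26) on day 3 and Emcn (−1.41) on day 7. Without WT J1 they were Cdh5 (0.18), Tek (0.20) and Etv2 (0.28) on day 0. Without WT V6.5 they were Flt1 (−0.063), Emcn (−0.031) and Nrp2 (−0.12) on day 0, Etv2 (−0.38) on day 3 and Pecam1 (0.10) and Nrp2 (0.26) on day 7. Leaving out 1 array moved Cdh5 between −0.28 and 0.073, Emcn between −0.20 and 0.25, Etv2 between −0.30 and 0.070 and Nrp2 between −0.10 and 0.26 on day 0, Etv2 between −0.047 and 0.27 on day 3, and Emcn between −0.53 and 1.11 and Pecam1 between −0.41 and 0.32 on day 7. The filter on low values kept 11149 genes and all 10 of these. The causes were not tested.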
